A study of Homo sapiens with 6 samples.

Results

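The ZBTB, ZSCAN and ZKSCAN genes are zinc finger genes, and they were taken here as the protein-coding genes of the deposited expression table whose symbol begins with ZBTB, ZSCAN or ZKSCAN followed by a digit. This gave 70 of the 27420 listed genes, with 42 ZBTB, 21 ZSCAN and 7 ZKSCAN symbols. RNA was sequenced from A673 and SKNMC, established cell lines of Ewing sarcoma, a bone and soft tissue tumour driven by the fusion of EWSR1 with an ETS gene, most often FLI1. Cells of either line received THZ1, a covalent inhibitor of CDK7, at 50 nM or 200 nM, or its solvent DMSO, for 6 h. Each of these 6 conditions is 1 library, so there is no replicate spread and nothing was tested. Values are FPKM, fragments scaled to transcript length and library size, so a level is a share of its library, the same loss from every transcript would not show, and fewer cells cannot be told apart from less RNA per cell. FPKM gives no read counts, so the depth behind each value is unknown.

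Proteins of the ZBTB family join a BTB domain, through which they pair and bind corepressors such as BCOR, to C2H2 zinc fingers that read DNA. ZSCAN proteins carry a SCAN domain, which also pairs such proteins, and ZKSCAN proteins add a KRAB domain, a class of domain known for recruiting the corepressor TRIM28. CDK7 is the kinase of the general factor TFIIH, and the comparison of THZ1 with DMSO asks which transcripts lose abundance with THZ1. In no library was CDK7 inhibited by other means, so effects of THZ1 beyond CDK7 cannot be told apart.

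Members above 1 FPKM with DMSO in a line were called active there, and counts and medians of changes cover only these. In A673 54 of the 70 members were active and in SKNMC 58, with 52 active in both lines, 2 in A673 alone, 6 in SKNMC alone and 10 in neither. Active ZBTB members numbered 37 in A673 and 38 in SKNMC, active ZSCAN members 11 and 14, and active ZKSCAN members 6 in each line. The median level of active members with DMSO was 5.22 FPKM in A673 and 6.09 FPKM in SKNMC, against 14.1 and 13.5 FPKM for all active genes. The members were therefore mostly low to moderate transcripts in both lines. Just above the threshold in A673 stood ZBTB42 at 1.05 FPKM and ZKSCAN3 at 1.36 FPKM, and just below it ZSCAN22 at 0.938 and ZSCAN31 at 0.844 FPKM. In SKNMC ZSCAN18 at 1.04 and ZBTB46 at 1.08 FPKM lay just above, and ZBTB42 at 0.976 and ZKSCAN7 at 0.761 FPKM just below. The filter reads the DMSO library, which also enters every comparison with DMSO.

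The 10 members active in neither line include factors of early embryos and stem cells. ZSCAN10, a factor of pluripotent cells, was listed at 0 in all 6 libraries. ZSCAN4, known from early embryos and from telomere maintenance, was listed at 0 in 5 libraries and at 0.00823 FPKM in SKNMC with 200 nM THZ1. ZBTB20, a regulator of liver and brain development, was at 0.0375, 0.342 and 0.132 FPKM in A673 with DMSO, 50 nM and 200 nM THZ1, and at 0.221, 1.19 and 0.741 FPKM in SKNMC. Its level was higher in each THZ1 library than with DMSO, but it did not reach the threshold with DMSO in either line.

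Changes are log2 ratios of FPKM with 1 added, a scale that understates the change of low transcripts, and decreased or increased means at least 2-fold on this scale. At 50 nM THZ1 24 of the 54 active members were decreased in A673, against 15.9% of all active genes, and 24 of 58 in SKNMC, against 15.8%. At 200 nM the counts were 31 of 54 in A673, against 25.3% of all active genes, and 32 of 58 in SKNMC, against 27.3%. Scaled to the 75th percentile of the active genes, the SKNMC count at 200 nM was 19 of 58, against 13.4% of all active genes, with a median of -0.71. Both doses share the DMSO library of their line. In A673 the members had a median change of -0.82 at 50 nM and -1.33 at 200 nM, while in SKNMC it was -0.80 and -1.07. Over all active genes the medians were -0.27, -0.40, -0.32 and -0.55 in the same order. When active was defined by the mean of the 3 libraries of a line, which the DMSO library enters less, 22 of 46 members in A673 were decreased with 50 nM THZ1 and 28 with 200 nM, against 15.6% and 24.9% of all genes passing that filter. In SKNMC these were 20 and 28 of 50, against 15.5% and 27.3%.

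These values resemble those of other zinc finger genes. Among 514 other protein-coding genes whose symbols start with ZNF, 349 were active in A673, of which 142 were decreased with 50 nM THZ1 and 210 with 200 nM, with medians of -0.81 and -1.18. In SKNMC 127 and 189 of 374 were decreased, with medians of -0.74 and -1.01. The members thus stood apart from the median of all active genes to about the extent of the ZNF genes.

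The families differed in how evenly they moved at the lower dose. In A673 at 50 nM, 12 of 37 ZBTB, 8 of 11 ZSCAN and 4 of 6 ZKSCAN members were decreased, against 15.9% of all active genes. Their medians were -0.62, -1.36 and -1.14. In SKNMC at 50 nM, the counts were 11 of 38, 8 of 14 and 5 of 6, against 15.8%, with medians of -0.61, -1.01 and -1.18. At 200 nM the medians were -0.95, -1.57 and -1.42 in A673 and -0.98, -1.11 and -1.34 in SKNMC. The counts there were 17 of 37, 8 of 11 and 6 of 6 in A673, against 25.3%. In SKNMC they were 19 of 38, 9 of 14 and 4 of 6, against 27.3%. With a pseudocount of 0.1 the medians at 50 nM were -0.94, -1.75 and -1.55 in A673 and -0.77, -1.63 and -1.41 in SKNMC. At 200 nM that pseudocount gave -1.32, -2.50 and -2.25 in A673 and -1.23, -1.88 and -2.18 in SKNMC. The family medians stayed below 0 under each of the 3 other scalings of the libraries that were tried, as did the median of all active genes. Each family median was also lower than that of all active genes. The gap was least with scaling by the ribosomal protein genes, at -0.19 for ZBTB members in SKNMC at 50 nM and -0.20 for ZSCAN members there at 200 nM. The counts did not all hold. With the 75th percentile, 8 of 37 ZBTB and 3 of 6 ZKSCAN members were decreased in A673 at 50 nM, with 8 of 11 ZSCAN members, against 11.0% of all active genes. In SKNMC these were 8 of 38 ZBTB, 5 of 14 ZSCAN and 3 of 6 ZKSCAN members at 50 nM, against 10.3%. At 200 nM they were 9, 6 and 4, against 13.4%. No ZSCAN or ZKSCAN member was above its DMSO level at 50 nM in either line, as deposited and under each of those scalings. Few of the other ZNF genes were above it as deposited, 32 of 349 (9.17%) in A673 and 40 of 374 (10.7%) in SKNMC. Of the ZBTB members, 9 of 37 (24.3%) were above it in A673, against 29.9% of all active genes, and 9 of 38 (23.7%) in SKNMC, against 3215 of 11896, a share near that of all genes as deposited. Scaling by the 75th percentile of each line's active genes, which shifted the all-gene median of A673 by 0.22 (50 nM) and 0.32 (200 nM) and that of SKNMC by 0.25 and 0.48, put 11 ZBTB members above DMSO in each line, against 46.4% of all active genes in A673 and 45.6% in SKNMC. Scaling by the ribosomal protein genes, which shifted it by -0.21 and -0.33 in A673 and by -0.29 and -0.46 in SKNMC, left 6 in A673, against 12.6%, and 5 in SKNMC, against 8.52%. Relative to the all-gene median, the members' own median stayed lower, at -0.68 and -0.57 with the percentile and -0.46 and -0.40 with the ribosomal protein genes at 50 nM. The plot of changes by family shows the wider range of the ZBTB members at 50 nM, over more genes than in the other families. In SKNMC at 200 nM the ZBTB range, from -2.28 to 0.04, was no wider than the ZSCAN range, from -2.25 to 0.15.

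**Figure D1:**
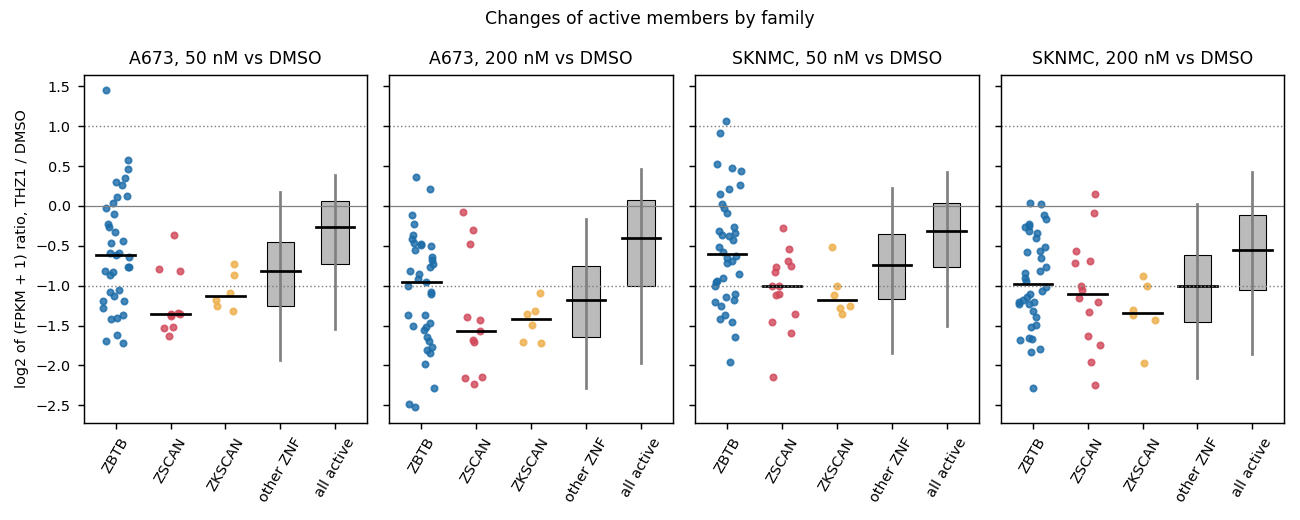
Changes of the active members against DMSO as log2 ratios of FPKM with 1 added, 1 panel per line and dose. Points are genes, black lines medians, boxes the quartiles and grey lines the range from the 5th to the 95th percentile of other ZNF genes and of all active genes, and dotted lines mark 2-fold. ZSCAN and ZKSCAN members at 50 nM lie below 0, with medians of -1.36 and -1.14 in A673, while ZBTB members spread from -1.72 to 1.45. The family medians lay below 0 under each scaling tried, as did the median of all active genes.

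Among the ZBTB members with the lowest mean of the 4 changes, ZBTB24, a factor mutated in an immunodeficiency with centromeric instability, stood at 6.27, 1.73 and 0.269 FPKM in A673 with DMSO, 50 nM and 200 nM THZ1. In SKNMC it stood at 7.78, 2.98 and 0.813 FPKM. Its level was lower at 50 nM than with DMSO and lower again at 200 nM, with changes of -1.41 and -2.52 in A673 and -1.14 and -2.28 in SKNMC. At 200 nM 4.29% of its DMSO level was left in A673 and 10.5% in SKNMC. ZBTB24 shares part of its span with MICAL1 on the same strand, so its value is less certain than that of a gene standing alone.

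ZBTB48, also called TZAP, binds telomeric repeats. Its levels were 6.67, 1.38 and 1.38 FPKM in A673 and 9.68, 1.75 and 2.34 FPKM in SKNMC. Here the whole decrease was present at 50 nM, with changes of -1.69 and -1.69 in A673 and -1.96 and -1.68 in SKNMC. ZBTB45 had the same course, from 8.83 to 2.2 and 2.43 FPKM in A673 and from 7.93 to 1.86 and 2.4 FPKM in SKNMC. ZBTB14, a factor that binds GC-rich DNA, was at 4.87, 1.19 and 0.721 FPKM in A673 and at 7.16, 2.05 and 1.36 FPKM in SKNMC, decreased at both doses in both lines.

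ZBTB33, known as Kaiso, ZBTB4 and ZBTB38 bind methylated DNA, and each had a different course. ZBTB33 was at 10.4, 4.22 and 1.34 FPKM in A673 and at 26.4, 13.6 and 6.69 FPKM in SKNMC, with changes at 200 nM of -2.28 and -1.83. ZBTB4 was at 6.44, 1.26 and 1.52 FPKM in A673 and at 4.64, 1.35 and 1.79 FPKM in SKNMC, so its lowest value was at 50 nM in both lines. ZBTB38 was at 2.67, 2.13 and 1.36 FPKM in A673 and at 11.7, 5.62 and 4.55 FPKM in SKNMC, and its changes of -0.23 and -0.64 in A673 did not reach 2-fold, while that of -1.20 at 200 nM in SKNMC did, but not with the 75th percentile, at -0.72, where ZBTB4 in SKNMC at 200 nM was at -0.63. ZBTB7A, a repressor of fetal globin genes, was at 10.3, 4.47 and 3.09 FPKM in A673 and at 8.55, 3.76 and 3.22 FPKM in SKNMC. It was decreased in all 4 comparisons as deposited, but scaled to the 75th percentile only in A673 at 200 nM, with -0.84, -0.77 and -0.73 in the others, and scaled to the sum of listed values it had -0.99 in SKNMC at 50 nM. Of 110 changes of named members, 13 were no longer past 2-fold with the percentile, that of ZBTB24 in SKNMC at 50 nM among them at -0.92. With the percentile 11 of the 110 changed sign, and with the ribosomal protein genes 9 did. The plot of levels sets these courses side by side for the named members.

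**Figure D2:**
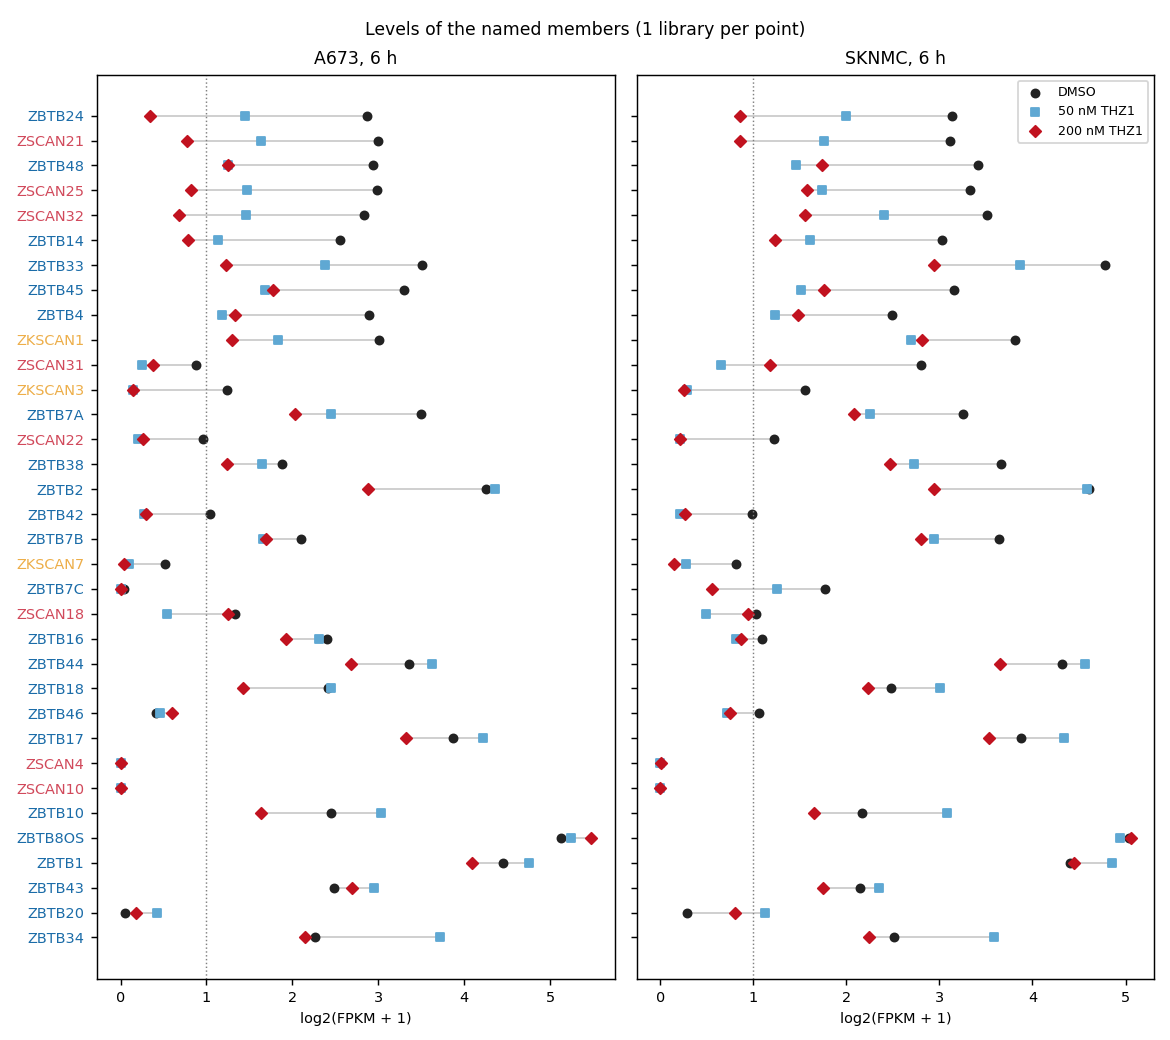
Levels of the 34 named members as log2 of FPKM with 1 added, ordered by the mean of their 4 changes from lowest at the top, with 1 library per point for DMSO, 50 nM and 200 nM THZ1. The dotted line marks 1 FPKM, and label colours mark ZBTB (blue), ZSCAN (red) and ZKSCAN (yellow). ZBTB24 falls to 0.269 FPKM in A673 at 200 nM, while ZBTB34 lies above its DMSO level at 50 nM in both lines.

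At the other end, 1 member was increased at 50 nM in each line, ZBTB34, against 0.343% of all active genes in A673 and 0.471% in SKNMC. No member was increased at 200 nM, against 0.126% of all active genes in A673 and 0.462% in SKNMC. ZBTB34 was at 3.79, 12.1 and 3.44 FPKM in A673 and at 4.7, 11 and 3.74 FPKM in SKNMC. Only its 50 nM library stood apart in each line, with changes of 1.45 and 1.07 there and of -0.11 and -0.27 at 200 nM. With the libraries divided by the ribosomal protein genes, ZBTB34 was no longer past 2-fold in SKNMC. Scaled to the 75th percentile, its changes at 200 nM were 0.19 in A673 and 0.20 in SKNMC.

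Other ZBTB members were also highest at 50 nM, without passing 2-fold on the scale with 1 added. ZBTB10, a repressor known for its effect on SP factors, was at 4.46, 7.18 and 2.1 FPKM in A673 and at 3.48, 7.46 and 2.14 FPKM in SKNMC, where its change at 50 nM was 0.92 and, with a pseudocount of 0.1, 1.08. ZBTB17, known as MIZ1, a partner of MYC, was at 13.6, 17.6 and 9.01 FPKM in A673 and at 13.7, 19.3 and 10.6 FPKM in SKNMC. ZBTB1, a factor of lymphoid development, was at 20.8, 25.9 and 16 FPKM in A673 and at 20.2, 27.9 and 20.8 FPKM in SKNMC. In each of these the 50 nM library was the highest of the 3 in both lines. ZBTB44 had 9.26, 11.3 and 5.4 FPKM in A673 and 18.9, 22.7 and 11.6 FPKM in SKNMC. ZBTB18, a repressor in neurons, had 4.34, 4.48 and 1.68 FPKM in A673 and 4.57, 7.03 and 3.7 FPKM in SKNMC. ZBTB43 had 4.61, 6.74 and 5.48 FPKM in A673 and 3.43, 4.12 and 2.35 FPKM in SKNMC. These 6 and ZBTB34 are the 7 members above DMSO at 50 nM in both lines, of 52 active in both, against 21.3% of all genes active in both, so such values were not more frequent among the members. They were listed after their values were seen. Scaled to the ribosomal protein genes, ZBTB18 lay below DMSO at 50 nM in A673 at -0.16, and ZBTB43 and ZBTB44 in SKNMC at -0.07 each. Scaled to the 75th percentile, ZBTB10 passed 2-fold in SKNMC at 1.18.

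Comparing the THZ1 libraries directly, 9 of 54 active members in A673 were at least 2-fold lower at 200 nM than at 50 nM, against 7.44% of all active genes, and 7 of 58 in SKNMC, against 8.39%. Scaled to the 75th percentile the SKNMC count was 4, against 5.05%. No member was at least 2-fold higher at 200 nM, against 0.117% of all active genes in A673 and 0.370% in SKNMC. All of the members lower at 200 nM were ZBTB genes, and 6 were shared by both lines, namely ZBTB2, ZBTB6, ZBTB10, ZBTB11, ZBTB24 and ZBTB34. The share of all genes lower in both lines was not taken. Scaled to the 75th percentile, ZBTB6 and ZBTB11 were less than 2-fold apart between doses in SKNMC. Against DMSO they were there at -0.41 and 0.42 at 50 nM and at -1.29 and -0.40 at 200 nM. With a pseudocount of 0.1, which reads low levels more sharply, 12 ZBTB, 4 ZSCAN and 1 ZKSCAN members were lower in A673, against 11.7% of all active genes at that setting, and 10, 2 and 1 in SKNMC, against 13.0%. ZBTB2, a regulator of the p53 pathway, was at 18, 19.5 and 6.36 FPKM in A673 and at 23.4, 23 and 6.7 FPKM in SKNMC. Its level at 50 nM was close to that with DMSO and the drop came at 200 nM, with changes of -1.48 in A673 and -1.64 in SKNMC against 50 nM. The plot of each member's path over the doses shows these drops at the higher dose among the ZBTB members.

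**Figure D3:**
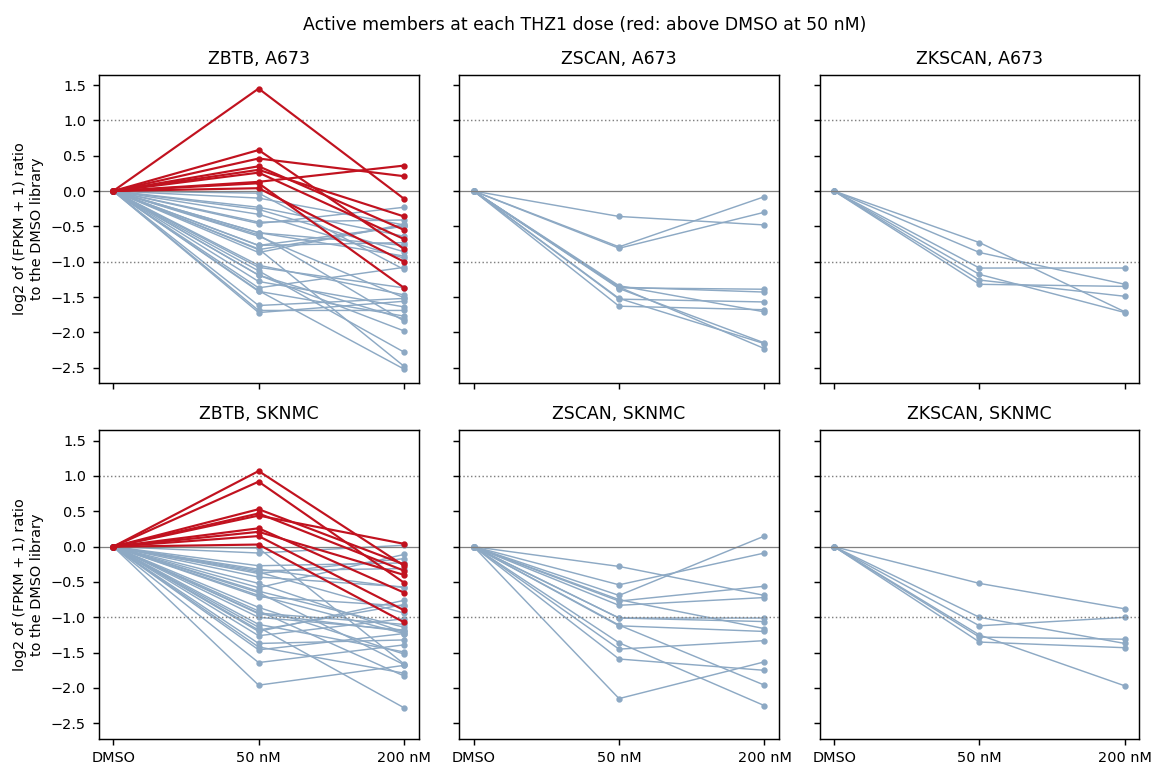
Active members by family and line as log2 ratios to the DMSO library of the line, with FPKM plus 1, at 50 nM and 200 nM THZ1. Each line is a gene, red lines are above DMSO at 50 nM and dotted lines mark 2-fold. Each ZBTB panel has 9 red lines, all lower at 200 nM than at 50 nM except for ZBTB8OS in A673, and the ZSCAN and ZKSCAN panels hold none. Scaled to the ribosomal protein genes, 6 ZBTB members in A673 and 5 in SKNMC lie above DMSO at 50 nM.

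ZBTB8OS met the symbol rule, but it is named for lying on the opposite strand from ZBTB8A and encodes archease, a cofactor of tRNA ligation, with no zinc finger. It had the highest DMSO level of the 70, with 33.8, 36.9 and 43.5 FPKM in A673 and 31.8, 29.8 and 32.3 FPKM in SKNMC. Its values differed little between libraries, while ZBTB8A went from 3.63 to 2.08 and 1.45 FPKM in A673 and from 5.48 to 2.37 and 2.02 FPKM in SKNMC. Without ZBTB8OS the counts of decreased members were unchanged, over 53 active members in A673 and 57 in SKNMC.

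ZSCAN21, studied in mice in the cerebellum, was the lowest ZSCAN member by mean change, at 7, 2.11 and 0.707 FPKM in A673 and 7.66, 2.38 and 0.816 FPKM in SKNMC. The lines gave nearly the same series of values, with changes of -1.36 and -2.23 in A673 and -1.36 and -2.25 in SKNMC. ZSCAN21 overlaps ZNF3, which was also lower with THZ1, so the value of ZSCAN21 is less certain than that of a gene standing alone. ZSCAN25 was at 6.94, 1.78 and 0.772 FPKM in A673 and at 9.05, 2.34 and 1.99 FPKM in SKNMC. ZSCAN32 was at 6.15, 1.76 and 0.609 FPKM in A673 and at 10.4, 4.28 and 1.93 FPKM in SKNMC. All of these were decreased in the 4 comparisons, apart from ZSCAN32 in SKNMC at 50 nM when scaled to the 75th percentile, at -0.87. ZKSCAN3, a repressor of autophagy genes, was at 1.36, 0.103 and 0.106 FPKM in A673 and at 1.95, 0.218 and 0.193 FPKM in SKNMC. Its change of -1.09 at 50 nM in A673 understates the loss, since 7.63% of its DMSO level was left there and 11.2% in SKNMC. ZKSCAN1, known for a circular RNA made from its transcript, was at 7.06, 2.55 and 1.45 FPKM in A673 and at 13, 5.46 and 6.01 FPKM in SKNMC. ZSCAN18 was at 1.52, 0.45 and 1.38 FPKM in A673 and at 1.04, 0.407 and 0.92 FPKM in SKNMC. It was lowest at 50 nM in both lines, at 29.7% and 39% of DMSO, and at 91.2% and 88.3% of DMSO at 200 nM.

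Members within 1 Mb of each other on a chromosome were taken as a cluster, which gave 10 clusters holding 35 members. The largest has 8 members on chromosome 6 (hg19, chr6:28092337-28411279), in the order ZSCAN16, ZKSCAN8, ZSCAN9, ZKSCAN4, ZSCAN31, ZKSCAN3, ZSCAN12 and ZSCAN23. Of its active members, A673 had 5 of 6 decreased at the lower dose and 6 of 6 at the higher, and SKNMC 4 of 7 and 5 of 7, against 15.9%, 25.3%, 15.8% and 27.3% of all active genes. ZSCAN16 was at 2.68, 0.189 and 0.152 FPKM in A673 and at 1.79, 0.283 and 0.218 FPKM in SKNMC, and ZKSCAN4 was at 1.89, 0.162 and 0.135 FPKM in A673 and at 2.7, 0.457 and 0.372 FPKM in SKNMC. Both were close to their lowest value already at 50 nM. ZKSCAN8 in the same cluster kept more, at 7.61, 4.2 and 1.64 FPKM in A673 and at 13.7, 9.21 and 7.01 FPKM in SKNMC. A cluster on chromosome 7 (hg19, chr7:99102273-99662661) holds ZKSCAN5, ZSCAN25, ZKSCAN1 and ZSCAN21, and all 4 were decreased in A673 at both doses and in SKNMC at 50 nM, with 3 of 4 at 200 nM. Scaled to the 75th percentile, ZKSCAN1 was no longer past 2-fold at 50 nM, at -0.99 in A673 and -0.87 in SKNMC, nor was ZKSCAN5 in SKNMC, at -0.79 and, scaled to the sum of listed values, at -0.99. Other clusters hold few active members. ZBTB22 and ZBTB9 on chromosome 6 were both decreased in each comparison with DMSO, with medians from -1.28 to -1.45. Scaled to the 75th percentile, ZBTB9 was at -0.98 in A673 and -0.86 in SKNMC at 50 nM, and ZBTB22 at -0.83 and -0.80 at 200 nM. Of the 5 on chromosome 19 that include ZSCAN18 and ZBTB45, 1 of 2 active members was decreased in A673 and 2 of 3 in SKNMC at each dose. With that scaling in SKNMC, ZSCAN22 was no longer past 2-fold, at -0.96 and -0.92, nor was ZBTB45 at 200 nM, at -0.97. Of the 4 on chromosome 1 that include ZBTB8A and ZBTB8OS, 0 of 2 were decreased in A673 at either dose, and 1 and 2 of 3 in SKNMC. Scaled to the 75th percentile in SKNMC, ZSCAN20 at 50 nM was no longer past 2-fold, at -0.98, nor was ZBTB8A at 200 nM, at -0.70. Scaled to the ribosomal protein genes, ZBTB8A was also past 2-fold in A673 at 200 nM, at -1.15, and in SKNMC at 50 nM, at -1.18. The 4 ZSCAN5 genes on chromosome 19 hold 1 active member, ZSCAN5A, as deposited decreased in A673 alone. Scaled to the ribosomal protein genes it was also past 2-fold in SKNMC, at -1.05 and -1.09. ZBTB6 and ZBTB26 on chromosome 9 were both decreased at 200 nM, with medians of -2.23 in A673 and -1.40 in SKNMC. At 50 nM 1 of 2 was decreased in A673 and 0 of 2 in SKNMC. Scaled to the 75th percentile, ZBTB26 was at -0.76 in SKNMC at 200 nM. By contrast, ZBTB43 and ZBTB34 are neighbours on chromosome 9 (hg19, chr9:129567284-129648157), and both were above DMSO at 50 nM in both lines, apart from ZBTB43 in SKNMC when scaled to the ribosomal protein genes. ZBTB1 lies beside ZBTB25 on chromosome 14, where ZBTB25 was at 2.01, 1.19 and 1.56 FPKM in A673, so neighbours did not always move alike. Clusters and members named here for their position were picked with their values known. The plot of the clustered genes gives the levels of the clusters on chromosomes 6 and 7.

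**Figure D4:**
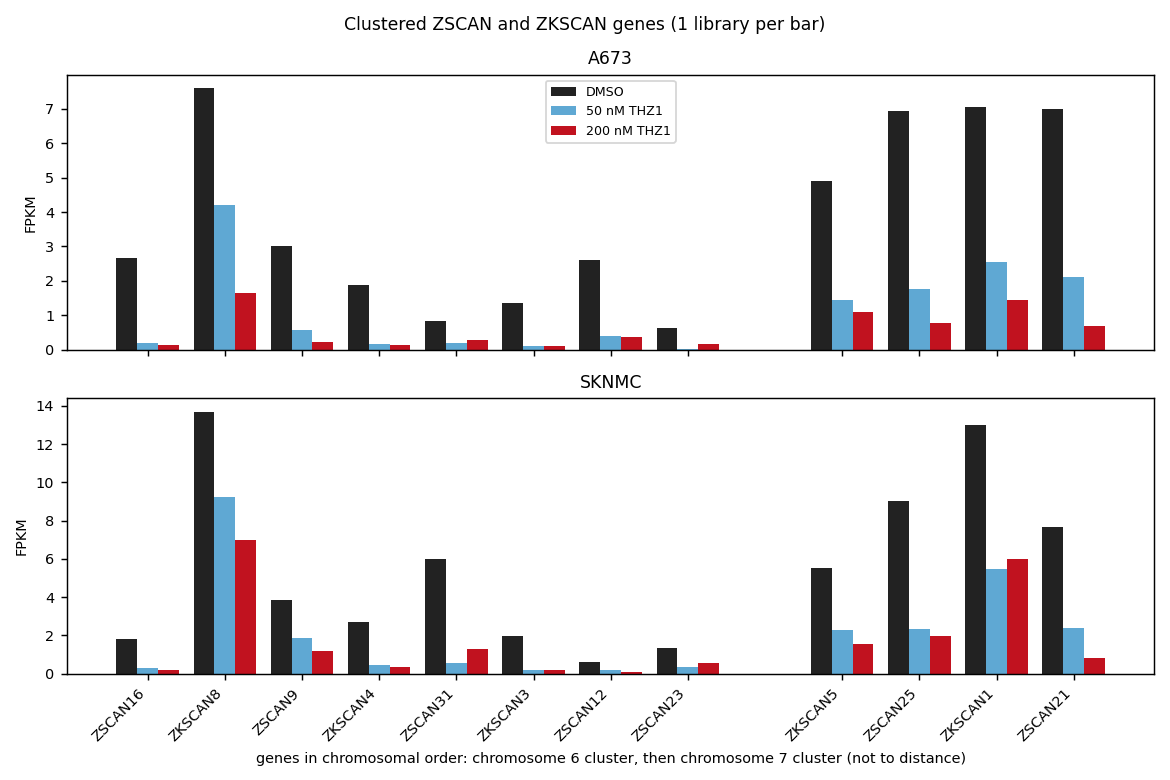
FPKM of the ZSCAN and ZKSCAN genes clustered on chromosomes 6 and 7, in chromosomal order and not to distance, with 1 library per bar for DMSO, 50 nM and 200 nM THZ1. The bars under THZ1 are lower than the DMSO bar for each gene in both lines, for example 0.189 and 0.152 against 2.68 FPKM for ZSCAN16 in A673.

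Of the 70 members, 22 overlap another gene of the table, most often on the opposite strand, and whether the authors' counting used strand is not given in the sources used here. ZSCAN21 overlaps ZNF3, which was at 16.1, 2.94 and 2.52 FPKM in A673 and at 20.6, 6.18 and 4.32 FPKM in SKNMC. ZSCAN32 overlaps NAA60, which was at 2.61, 1.23 and 0.462 FPKM in A673 and at 3.62, 1.11 and 1.73 FPKM in SKNMC. ZKSCAN3 overlaps ZSCAN31, and ZBTB25 overlaps MTHFD1, which had 119 FPKM in A673 with DMSO. Values of such members are uncertain, since reads of the partners cannot be told apart without strand. Among members that overlap no listed gene, 16 of 38 were decreased in A673 with 50 nM THZ1 and 23 with 200 nM, against 15.9% and 25.3% of all active genes. In SKNMC 15 and 22 of 40 were, against 15.8% and 27.3%.

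The length of the gene on the chromosome went with the change among the members, which the symbol rule did not use. Across the 54 active members in A673, Spearman's rho between gene span and log2 change was 0.44 at 50 nM and 0.43 at 200 nM, so longer members tended to have the smaller decrease. Across the 58 in SKNMC it was 0.45 and 0.39. Across all active genes rho was 0.18 and -0.01 in A673 and 0.18 and 0.04 in SKNMC. These are descriptions across genes, which are not independent replicates and share the same libraries. The number of exons of the longest annotated transcript gave rho between -0.10 and -0.01 among members and between 0.08 and 0.14 among all active genes. The families differ in span, with a median of 26.3 kb for ZBTB, 15.3 kb for ZSCAN and 21.9 kb for ZKSCAN genes, and rho was not taken within families.

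Promoter sequence, the 250 bases before each annotated start in RefSeq (GRCh38.p14, another build than the hg19 of the expression table), was matched by symbol for 60 of the 70 members. ZBTB6, ZBTB10, ZBTB16, ZBTB17, ZBTB40, ZBTB41, ZKSCAN2, ZSCAN5C, ZSCAN5D and ZSCAN16 had no match. A gene with several starts had several windows, 109 in all for the 60 members. On either strand, the ETS letters CCGGAAGT were found for 10 of 60 members (16.7%), against 4.13% of all 27305 genes with a window and 5.91% of the protein-coding genes of the table. CCAAT was found for 51.7% of members, against 37.0% of all and 40.6% of protein-coding genes, and the E-box CACGTG for 16.7%, against 7.73% and 9.86%. The NRF1 core GCGCATGC was found for 6.67%, against 3.22% and 4.47%, the GGAA repeat GGAAGGAA for 6.67%, against 3.76% and 4.30%, and TATAAA for 8.33%, against 13.0% and 11.7%. These shares count a gene if any of its windows holds the letters, and all genes have fewer windows per gene (35093 for 27305) than the members. The ETS letters and the GGAA repeat share GGAA. AAGATGGCG, the YY1 letters, was found for 0 of 60 members, 0.784% of all and 1.00% of protein-coding genes. Among members decreased in both lines at 50 nM, 3 of 17 held the ETS letters, and among those above DMSO in both lines 0 of 5. A match says only that these letters are in the window.

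Windows are shown for ZBTB24, the member with the lowest mean change, for the 3 members decreased in both lines at 50 nM that hold the ETS letters, and for ZBTB34 and ZBTB43, which were above DMSO at 50 nM. ZBTB45 has 3 windows and ZSCAN29 has 2, of which 1 holding the ETS letters is shown for each gene. Letters counted for a gene may lie in a window not shown, as CCAAT does for ZSCAN29. Each window shown runs 5′ to 3′ on the strand of its gene and ends just before the start, and capitals mark the letters searched. They are ZBTB24 (chr6:109483220-109483469, reverse strand), with the E-box 57 bases before the start, ZBTB45 (chr19:58519603-58519852, reverse strand), ZKSCAN3 (chr6:28349697-28349946, forward strand), ZSCAN29 (chr15:43371044-43371293, reverse strand), ZBTB34 (chr9:126860389-126860638, forward strand) and ZBTB43 (chr9:126804790-126805039, forward strand). The ETS letters begin 213 bases before the start in ZBTB45, 38 in ZKSCAN3 and 118 in ZSCAN29, where the NRF1 core follows on both strands as overlapping letters. The window of ZBTB43 holds the NRF1 core on the reverse strand, and that of ZBTB34 holds none of the letters searched.
ZBTB24: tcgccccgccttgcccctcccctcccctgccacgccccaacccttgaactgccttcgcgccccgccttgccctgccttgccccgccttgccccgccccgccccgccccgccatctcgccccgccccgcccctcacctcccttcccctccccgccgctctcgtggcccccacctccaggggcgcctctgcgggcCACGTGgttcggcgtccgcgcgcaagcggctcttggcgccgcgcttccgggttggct
ZBTB45: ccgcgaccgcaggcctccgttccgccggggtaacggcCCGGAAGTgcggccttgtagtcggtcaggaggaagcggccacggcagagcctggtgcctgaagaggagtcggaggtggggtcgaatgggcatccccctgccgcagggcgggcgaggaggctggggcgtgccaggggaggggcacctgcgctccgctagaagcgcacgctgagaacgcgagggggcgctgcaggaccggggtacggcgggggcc
ZKSCAN3: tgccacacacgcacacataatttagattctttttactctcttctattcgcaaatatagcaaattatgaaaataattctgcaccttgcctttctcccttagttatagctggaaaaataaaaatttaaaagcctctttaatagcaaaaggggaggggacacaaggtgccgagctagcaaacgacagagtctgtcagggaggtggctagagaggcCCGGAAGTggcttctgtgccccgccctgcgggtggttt
ZSCAN29: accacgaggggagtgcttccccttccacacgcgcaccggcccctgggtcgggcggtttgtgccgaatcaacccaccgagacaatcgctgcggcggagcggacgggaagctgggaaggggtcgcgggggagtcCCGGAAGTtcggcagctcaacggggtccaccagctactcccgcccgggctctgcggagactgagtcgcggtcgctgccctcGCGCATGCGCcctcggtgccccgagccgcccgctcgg
ZBTB34: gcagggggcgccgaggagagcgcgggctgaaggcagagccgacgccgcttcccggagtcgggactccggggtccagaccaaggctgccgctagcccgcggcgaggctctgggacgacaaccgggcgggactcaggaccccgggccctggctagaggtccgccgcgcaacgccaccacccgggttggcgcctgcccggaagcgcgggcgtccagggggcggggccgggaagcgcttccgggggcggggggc
ZBTB43: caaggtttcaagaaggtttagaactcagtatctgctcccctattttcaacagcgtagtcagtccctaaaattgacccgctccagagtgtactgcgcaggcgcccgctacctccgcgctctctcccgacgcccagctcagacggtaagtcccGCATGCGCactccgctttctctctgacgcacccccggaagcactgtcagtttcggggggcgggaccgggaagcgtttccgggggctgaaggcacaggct

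The lines share no library, so their changes could be set side by side for the 52 members active in both. At 50 nM 23 of these were decreased in A673 and 21 in SKNMC, and 18 in both, which is 78.3% of the A673 list and 85.7% of the SKNMC list. Over all genes active in both lines, the decreased genes shared at 50 nM were 70.8% of the A673 list and 70.7% of the SKNMC list. At 200 nM 30 and 28 were decreased and 25 in both, 83.3% and 89.3% of the lists, against 79.6% and 71.3% over all genes. Spearman's rho of the changes between the lines was 0.87 at 50 nM and 0.82 at 200 nM across these members, close to the 0.84 and 0.82 across all 10574 genes active in both. The plot of the changes in A673 against those in SKNMC shows the members close to the line of equality.

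**Figure D5:**
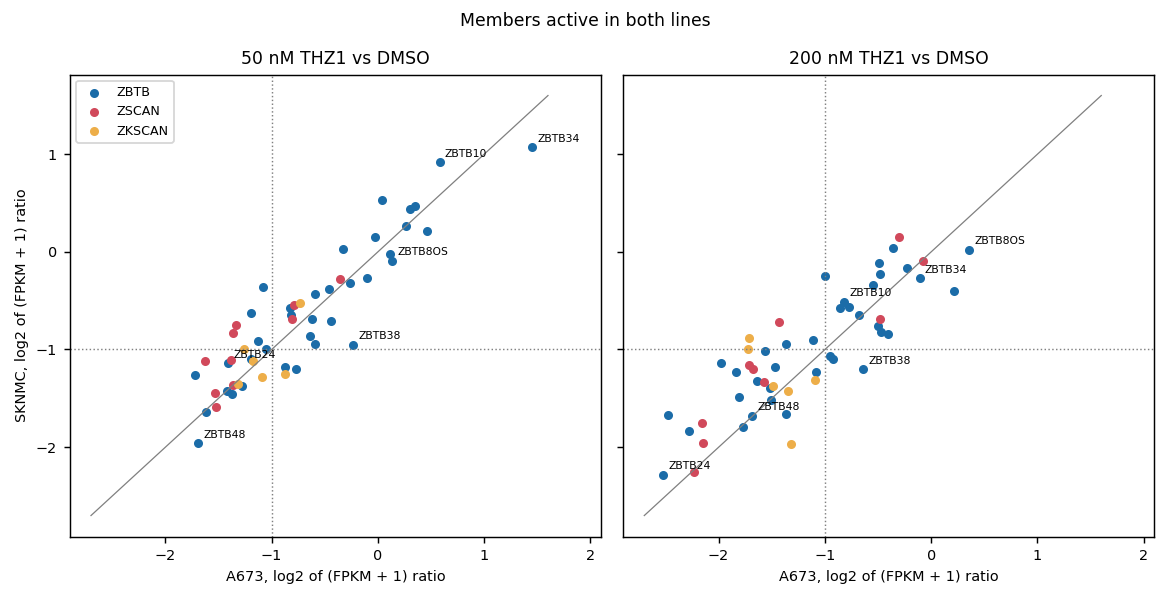
Changes against DMSO in A673 and in SKNMC for the 52 members active in both lines, at 50 nM and at 200 nM THZ1, as log2 ratios of FPKM with 1 added. The grey line is equality and dotted lines mark a 2-fold decrease. Points lie near the line, with rho of 0.87 and 0.82 across genes.

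With DMSO, of the 60 members active in at least 1 line, 2 were at least 2-fold higher in A673, against 8.42% of the 12399 genes passing that filter, and 5 in SKNMC, against 15.0%. With a pseudocount of 0.1, 2 were higher in A673 and 10 in SKNMC, with 29.7% of all genes different in either direction. ZSCAN31 had 0.844 FPKM in A673 and 6 FPKM in SKNMC. ZBTB7B, known as ThPOK, a factor of CD4 T cell fate, had 3.28 and 11.5 FPKM, and ZBTB7C had 0.0244 and 2.42 FPKM. ZBTB38 and ZBTB33 complete the 5 higher in SKNMC, at differences of -1.80 and -1.27. The 2 members higher in A673 were ZBTB16, known as PLZF, a factor of spermatogonial stem cells, with 4.3 against 1.13 FPKM, and ZSCAN12 with 2.62 against 0.638 FPKM. All 8 Ewing sarcoma markers looked at were listed above 1 FPKM with DMSO in both lines, from 9.15 FPKM for BCL11B to 711 FPKM for CCND1 in A673 and from 21.4 to 370 FPKM for the same genes in SKNMC. Of the markers of other cells, PTPRC of leukocytes was at 0.0201 FPKM in A673 and 10.2 FPKM in SKNMC with DMSO, 7.9 FPKM at 50 nM and 13.1 FPKM at 200 nM, EPCAM of epithelia was at most 0.826 FPKM in any library, and PECAM1 was not matched by symbol. The summed level of the matched markers with DMSO was 0.043 FPKM in A673 and 10.7 FPKM in SKNMC, and their part in the differences between the lines was not tested.

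Genes with the same domains under other symbols were counted in the same way, against the shares of all active genes given above. Of 8 such BTB zinc finger genes 6 were active in each line, and in A673 3 of them were decreased with 50 nM THZ1 and 5 with 200 nM, while in SKNMC it was 2 and 4. MYNN was at 12.6, 1.7 and 1.77 FPKM in A673 and at 14.1, 3.21 and 2.15 FPKM in SKNMC. HIC2 was instead highest at 50 nM, with 3.12, 3.83 and 2.26 FPKM in A673 and 3.94, 7.36 and 3.43 FPKM in SKNMC. BCL6, the germinal centre repressor, was at 3.93, 1.68 and 0.897 FPKM in A673 and at 30.1, 19.2 and 13.7 FPKM in SKNMC. Of 23 such SCAN domain genes, 21 were active in A673, with 12 decreased at the lower and 15 at the higher dose, and 20 in SKNMC, with 7 and 12. ZNF232 was at 6.19, 0.74 and 0.914 FPKM in A673 and at 4.29, 0.614 and 0.502 FPKM in SKNMC. Some lay above DMSO in a comparison, PEG3 in A673 at 50 nM (0.30), ZNF263 in SKNMC at 50 nM (0.13) and MZF1 in SKNMC at 200 nM (0.26).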

How the data were processed

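The 6 libraries, 1 per condition, were grouped by their labels. The authors aligned paired-end reads to hg19 with STAR and deposited FPKM values per gene. The submitters' processing notes name Cufflinks and the methods StringTie for FPKM, and the table's title speaks of averages although the labels give 1 sample per condition, so each column was treated as 1 library. The 4 deposited columns of log2 fold changes were neither used nor compared. FPKM holds no read counts, so no depth or counting interval can be given. Steps between low values placed the THZ1 libraries at 88.7% to 97.8% of the depth of their DMSO library, an estimate that rests on at most 1.18% of low values. Genes listed at 0 are reported only as that.

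Changes are log2 ratios of FPKM with a pseudocount of 1, active means FPKM above 1 with DMSO, and decreased or increased means at least 2-fold. Python 3.11.15, numpy 2.4.6, pandas 2.3.3, scipy 1.17.1 and matplotlib 3.10.9 were used. Promoter windows came from RefSeq by symbol. Related genes and markers were lists by symbol. The steps were tested on simulated data. Members and lists were chosen with earlier results of these data known. The named members are, of those active in both lines, the 8 lowest and 6 highest by the mean of the 4 changes, the 5 with the highest mean DMSO level, of those active in at least 1 line, the 4 with the largest difference between DMSO libraries, the 2 just above and the 2 just below 1 FPKM in each line, and 15 members listed for their roles; other members named were chosen after their values were seen. Exons were counted on GENCODE models lifted to GRCh37. The alternatives tried were another pseudocount (0.1), active by other rules, 3 scalings, a 1.5-fold threshold, a background of protein-coding genes alone and, chosen after seeing the data, leaving out ZBTB8OS or members that overlap another listed gene. The scaling to ribosomal proteins used 77 genes.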

Additional observations from a re-analysis of the deposited data

How the results depend on the processing

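Of 146 counts and medians of the members under the alternatives, 116 stayed within bounds and 30 moved. The bounds were 1.5 times the count, or the 95% interval of the median across members, which covers no variation between libraries. Some of the 116 could not have moved. With 1 added, a gene below 1 FPKM with DMSO cannot fall past 2-fold, so dropping the filter adds no decreased member. ZBTB8OS was past 2-fold in no comparison, so leaving it out changes no count of decreased or increased members. Scaling to the sum leaves the DMSO libraries as they are, so the count between the lines is fixed. The medians at 200 nM, the only ones at or past 2-fold as deposited, did not change sign. With active meaning FPKM above 5, which leaves fewer members, 15 (50 nM) and 20 (200 nM) of 27 were decreased in A673 (all active genes 16.3% and 26.8%), 0 were increased at 50 nM in either line (0.283% and 0.375%), the medians at 200 nM were -1.56 in A673 and -1.23 in SKNMC, and 4 of 36 differed between the DMSO libraries (20.7%). With a 1.5-fold threshold, which by construction calls more members, 37 of 54 were decreased in A673 (31.8%) and 2 of 58 increased in SKNMC (2.43%) at 50 nM, 21 in A673 (18.0%) and 17 in SKNMC (22.1%) were lower at 200 nM than at 50 nM, and 15 of 60 differed between the lines (44.2%). With a pseudocount of 0.1 the medians were -1.34 and -1.79 in A673 and -1.07 and -1.37 in SKNMC at 50 nM and 200 nM, 2 members were increased in SKNMC at 50 nM (0.773%), 17 in A673 (11.7%) and 13 in SKNMC (13.0%) were lower at 200 nM than at 50 nM, and 12 differed between the lines (29.7%), 10 of them higher in SKNMC. With no filter the median in A673 at 200 nM was -0.84. Scaled to the 75th percentile, SKNMC had 19 members decreased at 200 nM (13.4%) with a median of -0.71, 2 increased at 50 nM (1.24%), and 4 lower at 200 nM than at 50 nM (5.05%). Scaled to the ribosomal protein genes, the SKNMC medians were -1.01 at 50 nM and -1.39 at 200 nM, with 0 increased at 50 nM (0.177%). Without members that overlap another listed gene, chosen after seeing the data, 15 of 40 were decreased in SKNMC at 50 nM (15.8%) and 4 of 42 differed between the lines (23.5%). Where the construction of an alternative does not show it, the cause was not tested. No fit with the lines as blocks was run.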
